A study of Mus musculus with 2 samples.

Results

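Acute phase proteins and metallothioneins were examined as 8 genes, *Saa1*, *Saa2*, *Saa3*, *Orm1*, *Hp*, *Hamp*, *Mt1* and *Mt2*, taken by symbol from the 32589 genes of the count files, where all 8 were found. The data are scRNA-Seq of cholangiocarcinoma (CCA)-bearing mouse livers, in which each transcript molecule is counted once by a unique molecular identifier (UMI). The tumors had been induced by hydrodynamic tail vein injection of plasmids that express the Notch intracellular domain and myristoylated AKT in hepatocytes. Both libraries came from shYT animals, in which doxycycline given from day 25 switched on shRNAs that deplete *Yap1* and *Wwtr1*, which encodes TAZ, through a ubiquitously active transactivator, so the depletion was directed at all cell types in both groups. One group received PBS and the other an antibody against PD-1 (clone RMP1-14) by injection on days 26, 29 and 32, and day 33 was the day of harvest. The question was how adding an immune checkpoint block to YAP/TAZ depletion changes the liver cells. There was 1 library per group, so no difference below can be set against a spread between animals, no test was made, and every interval covers counting error only.

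Acute phase proteins are secreted mainly by hepatocytes when IL-6 and IL-1 reach the liver, IL-6 acting through STAT3 and C/EBP factors and IL-1 through NF-kB. *Saa1* and *Saa2* encode the serum amyloid A apolipoproteins, *Orm1* encodes orosomucoid, *Hp* encodes haptoglobin, which binds free hemoglobin, and *Hamp* encodes hepcidin, the hormone that blocks iron export through ferroportin. *Saa3* is the family member made outside the liver parenchyma, by macrophages and other stromal cells. *Mt1* and *Mt2* encode small cysteine-rich proteins that bind zinc and copper, and their transcription is switched on by zinc through the factor MTF1, by glucocorticoids and by inflammation.

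After the limits on cell quality, 15531 of 19397 barcodes of the PBS library and 16360 of 19451 barcodes of the anti–PD-1 library remained, with a median of 3159 and 2990 UMIs per cell. Cells were placed in 1 of 20 classes by marker genes, none of which was a member. Of these, 9 classes held at least 100 cells in each library and are called main classes, and 16.3% and 19.8% of cells stayed ungated because no class led clearly. The libraries differed in sex. *Xist*, transcribed in female cells, had 18452 UMIs under PBS and 11 under anti–PD-1, and 4 Y-linked genes had 3113 and 15323 UMIs, so the PBS library mixed cells of both sexes and the anti–PD-1 library was almost wholly male. Sex and treatment cannot be told apart over all cells, and values in male-called cells, those having Y-linked but no *Xist* UMIs (1481 and 7861 cells), are given below where they change a direction or a 2-fold call. Another 409 and 7 cells had UMIs of both kinds. Male-called PBS cells can thus include female cells with stray Y-linked RNA and no counted *Xist*, and this share was not tested. The call needs a counted Y-linked UMI, so it favors deeper cells. The libraries shared 145 kept barcodes. The depth of the depletion cannot be read without an undepleted library, which was not analysed here. In tumor or biliary epithelial cells *Yap1* was at 9.66 CPM (7.44–12.3, 64 UMIs) under PBS and 12.6 CPM (8.98–17.3, 39 UMIs) under anti–PD-1, and *Wwtr1* at 11.6 CPM (9.17–14.5, 77 UMIs) and 7.77 CPM (4.98–11.6, 24 UMIs), in units of CPM, that is UMIs scaled to a common total of the class (counts per 1e6). Over all kept cells *Yap1* was at 3.38 CPM (2.98–3.81) and 1.70 CPM (1.42–2.015). *Wwtr1* was at 10.4 CPM (9.72–11.15) and 2.56 CPM (2.22–2.94) over all kept cells. The mix of classes also differed, with endothelial cells at 3.445% and 0.575% of kept cells, and its part was not tested. The study describes several replicates per group, and cells carried no hashtag, so the animals within a library cannot be told apart here. Their strain and age and the shRNA line of each library were not given in the sources used here.

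Across the main classes, the metallothioneins and *Saa3* and *Hp* were the abundant members, and *Saa1*, *Saa2*, *Orm1* and *Hamp* were close to 0 outside hepatocytes, except *Hamp* in PBS tumor or biliary epithelial cells. The plot of levels by class shows the abundant members. *Saa3* reached 287.8 CPM in PBS monocytes and 545 CPM in anti–PD-1 macrophages, *Hp* led in neutrophils in both libraries, and *Mt1* and *Mt2* led in fibroblasts among the main classes. Deeply counted genes leave 0 easily, and over the main classes 12.7% of all measured pairs of gene and class had an interval above 0 and 28.5% one below it. *Mt1* was higher in the anti–PD-1 library, with an interval above 0, in 8 of the 9 main classes and lower in none. *Saa3* was higher in 6 main classes and lower in 2, *Hp* was higher in 6 and lower in 1, and *Mt2* was higher in 5 and lower in none.

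**Figure D1:**
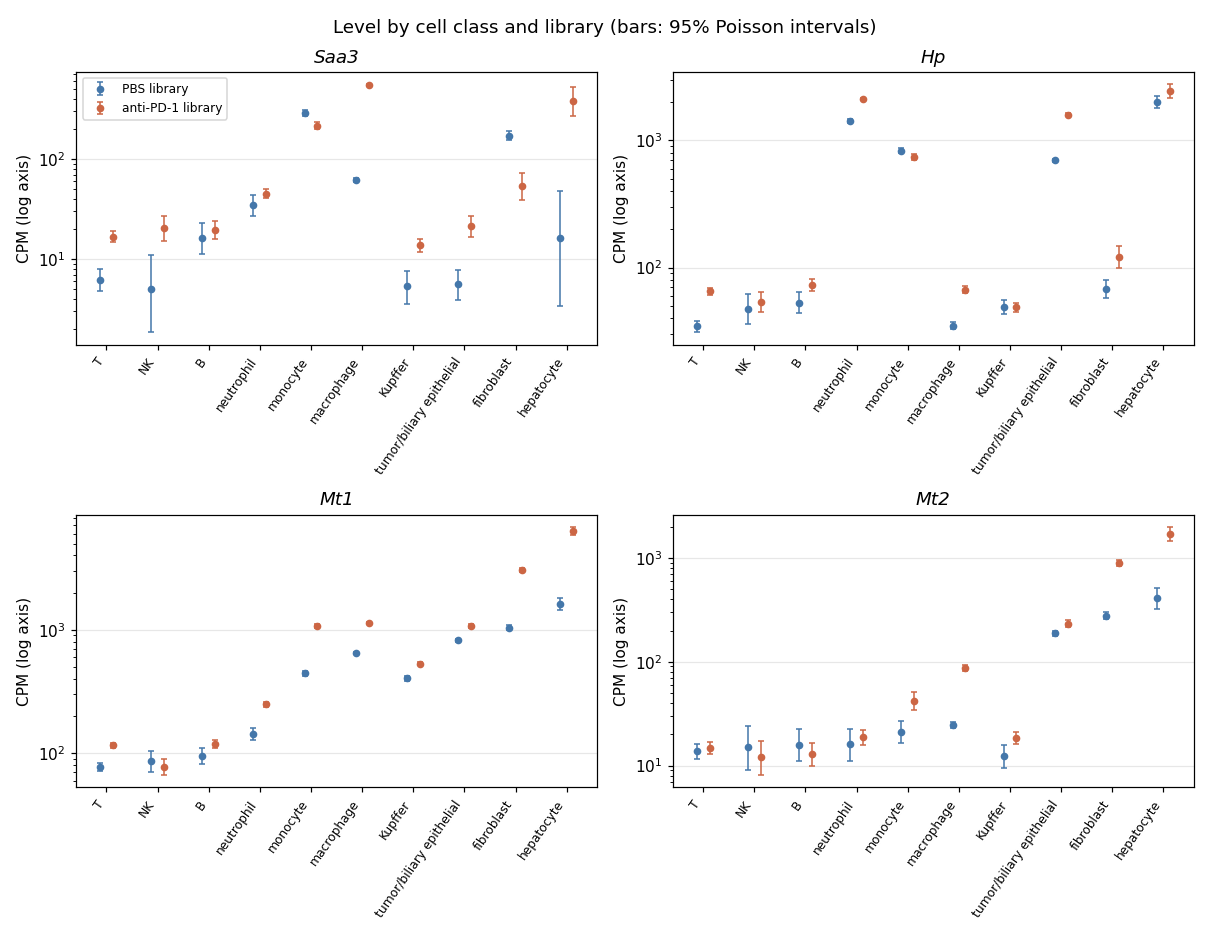
Level of *Saa3*, *Hp*, *Mt1* and *Mt2* in CPM on log axes in the 9 main classes and in hepatocytes, with 1 point per library (PBS blue, anti–PD-1 orange) and 95% Poisson intervals. *Saa3* goes from 62.1 to 545 CPM in macrophages, *Hp* from 697.3 to 1594 CPM in tumor or biliary epithelial cells and *Mt1* from 1040 to 3061 CPM in fibroblasts, while hepatocytes are only 70 and 20 cells.

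A member was counted as past 2-fold when the ratio of CPM + 5 between the libraries, anti–PD-1 over PBS, was at least 1 on the log2 scale in either direction, among genes with at least 20 UMIs in the class. Scaling by the median ratio of genes in place of the class total would raise the log2 ratios by up to 0.21 (neutrophils) and 0.20 (macrophages). By the 2-fold measure 2 of 7 measured members were higher in macrophages, *Saa3* and *Mt2*, where 2.19% of all measured genes were, and 0 were lower, against 0.326% of genes. Fibroblasts had 2 of 4 members higher, *Mt1* and *Mt2*, against 3.33% of genes, and 1 lower, *Saa3*, against 2.6%. The tumor or biliary epithelial class had 2 of 5 members higher, *Saa3* and *Hp*, against 2.97% of genes, and 1 lower, *Hamp*, against 2.11%. Monocytes had 1 of 4 members higher, *Mt1*, against 3.32% of genes, and 0 lower against 1.77%. NK cells had 1 of 4 higher, *Saa3*, on 6 and 49 UMIs, against 2.68% of genes, and 0 lower against 2.39%. The remaining main classes had no member past 2-fold in either direction. These were T cells, with 5 members measured and 1.21% of genes higher and 0.602% lower, B cells, with 5 members and 1.52% and 1.75%, neutrophils, with 6 members and 2.35% and 3.96%, and Kupffer cells, with 4 members and 1.56% and 0.309%. Over the 9 classes, 8 of 44 measured pairs of member and class were at least 2-fold higher, against 2.3% of all pairs of gene and class, and 2 were at least 2-fold lower, against 1.67%.

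Male-called cells were few in the PBS library, from 28 fibroblasts to 347 macrophages, and more genes of any kind passed 2-fold among them. There 17 of 36 measured pairs of member and class were at least 2-fold higher, against 6.32% of all pairs of gene and class, and 1 was lower (*Mt2* in epithelial cells), against 3.86%. In 3 of the 17, *Saa3* in fibroblasts, epithelial cells and NK cells, the male-called PBS cells had 0 UMIs. Of the pairs under 2-fold in all cells, *Hp* passed it in fibroblasts (log2 ratio 2.04, 5 and 70 UMIs), B cells (1.69, 5 and 203 UMIs), macrophages (1.32, 80 and 595 UMIs) and Kupffer cells (1.08, 19 and 411 UMIs). *Mt1* passed it in neutrophils (1.92, 10 and 868 UMIs), and *Saa3* in monocytes (below), neutrophils (1.72, 2 and 181 UMIs) and Kupffer cells (1.05, 4 and 123 UMIs). Small ratios changed sign for *Mt1* and *Mt2* in NK cells, from −0.15 and −0.24 to 0.28 and 0.91, and for *Mt2* in Kupffer cells, from 0.44 to −0.09. Beside the *Hp* values, summed neutrophil markers over all cells of a class were at 285.5 and 884.3 CPM in B cells. In Kupffer cells they were at 348.7 and 822 CPM, and the part of neutrophil RNA in *Hp* was not tested.

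**Figure D2:**
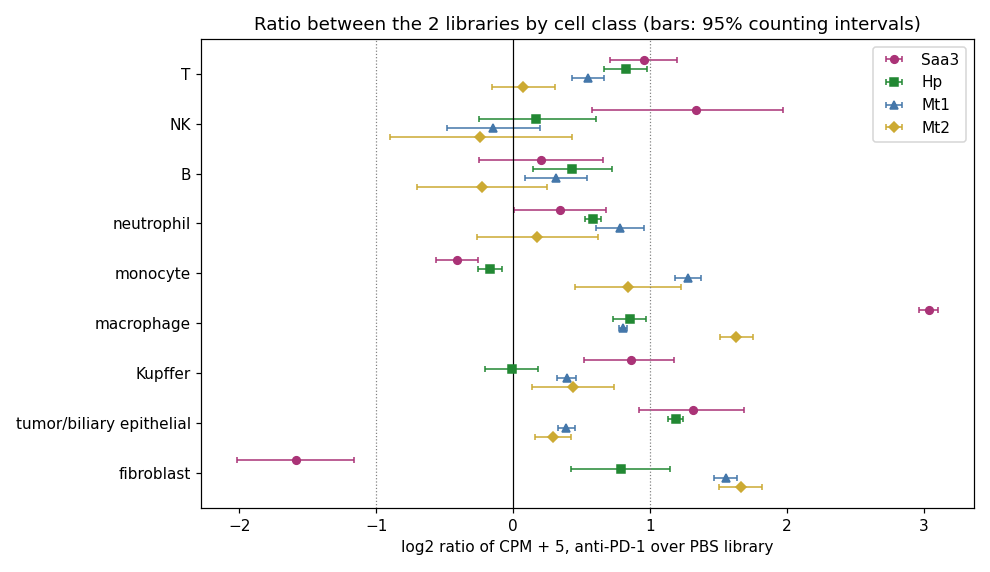
Log2 ratio of CPM + 5, anti–PD-1 over PBS library, for *Saa3*, *Hp*, *Mt1* and *Mt2* in the 9 main classes, with 95% counting intervals and dotted lines at 2-fold. *Saa3* lies at 3.04 in macrophages and at −1.58 in fibroblasts, and both metallothioneins lie past 1 in fibroblasts.

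*Saa3* (ENSMUSG00000040026, mm10 chromosome 7, 46711998 to 46715700, reverse strand) had its highest mean level over both libraries in macrophages, among the main classes. PBS macrophages (3179 cells) had 1753 *Saa3* UMIs, or 62.1 CPM (95% Poisson interval 59.2 to 65.1), and anti–PD-1 macrophages (1273 cells) had 6741 UMIs, or 545 CPM (532.1–558.2). The log2 ratio was 3.04 (2.96–3.11), and over all measured genes of the class the median was −0.13. The share of macrophages with a *Saa3* UMI was 1.28% (exact binomial interval 0.914 to 1.74) and 5.22% (4.04–6.63) after each cell had been thinned to 1000 UMIs, and 5.06% and 15.6% without thinning. At the same thinned depth T cells, which are not known to make *Saa3*, had shares of 0.615% and 1.77%, so macrophages stood above this level in the anti–PD-1 library, while in the PBS library the intervals overlapped (T cells 0.371–0.958). Without thinning, the median depth of macrophages was 8174 and 9145 UMIs and that of T cells 2730 and 3600.

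The level of *Saa3* in macrophages was carried by few cells. Cells with at least 10 *Saa3* UMIs numbered 29 under PBS (0.912%) and 51 under anti–PD-1 (4.01%), and they held 84.1% and 96.5% of the *Saa3* UMIs of the class. In the other macrophages *Saa3* stood at 9.96 CPM (8.82–11.2) and 20.1 CPM (17.6–22.9), and the log2 ratio without the *Saa3*-rich cells was 0.75. The highest single cell had 221 UMIs under PBS and 744 under anti–PD-1. The plot of *Saa3*-rich cells shows each of them by class.

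The genes that stood highest in *Saa3*-rich macrophages over macrophages with no *Saa3* UMI, by the lower of the log2 ratios of CPM + 20 in the 2 libraries, were *Prg4*, *Slpi*, *Alox15*, *F5*, *Ednrb*, *Serpinb2*, *Fn1*, *Thbs1*, *Ltbp1*, *Ptgis*, *Lrg1* and *Arg1*. *Prg4*, the gene of lubricin, was at 1849 CPM in rich cells and 0.644 CPM in cells without *Saa3* in the PBS library, and at 4863 and 3.86 CPM in the anti–PD-1 library. *Alox15*, a lipoxygenase, was at 678 and 0.455 CPM under PBS and at 2371 and 3.55 CPM under anti–PD-1. Several of these genes, with *Selp*, *Icam2* and the transcription factor *Gata6*, are known from the resident macrophages of the peritoneal cavity, and *Gata6* was at 44.6 against 3.83 CPM under PBS and at 69.3 against 2.54 CPM under anti–PD-1. The macrophage markers *Ms4a7* and *Trem2* were lower in rich cells of the anti–PD-1 library (171.9 against 1028 CPM, and 314.2 against 463.7 CPM). Under PBS *Ms4a7* was at 604.8 against 1080 CPM, and *Trem2* differed little, at 728.9 against 813.7 CPM. The monocyte marker *Ly6c2* was higher in rich cells under PBS (98.7 against 25.3 CPM) and lower under anti–PD-1 (41.04 against 95.25 CPM). *Ccr2*, another monocyte marker, was at 146.4 against 197 CPM under PBS and 7.7 against 107.6 CPM under anti–PD-1. The mesothelial markers *Msln* and *Upk3b* had 0 UMIs in the rich macrophages of both libraries. This profile describes the cells that the *Saa3* count picked, and the lookups of *Gata6*, *Selp*, *Icam2*, *Ms4a7*, *Trem2*, *Ly6c2* and *Ccr2* were chosen after values had been seen.

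Macrophages with any UMI of *Prg4*, *Alox15*, *F5* or *Serpinb2* were 68 of 3179 (2.14%, 1.67 to 2.7) in the PBS library and 194 of 1273 (15.2%, 13.3 to 17.3) in the anti–PD-1 library. A UMI of these genes was not particular to macrophages, since 4.25% of all kept PBS cells and 12.6% of all kept anti–PD-1 cells had one. After thinning to 1000 UMIs the shares were 0.703% (0.441–1.06) and 4.98% (3.82–6.36) in macrophages, 0.453% (0.248–0.759) and 2.39% (1.91–2.97) in T cells, 5.06% and 13.4% in neutrophils and 1.63% and 5.63% over all kept cells. The summed level of the 4 genes was 35.3 and 654.1 CPM in macrophages, 59.8 and 156.3 CPM in neutrophils and 5.25 and 19.2 CPM in T cells. The macrophages with a UMI held 1035 of the 1753 and 6107 of the 6741 *Saa3* UMIs. Within these cells *Saa3* was at 1245 CPM (1170–1323) and 2609 CPM (2544–2675), and in the other macrophages it was at 26.2 CPM (24.3–28.2) and 63.2 CPM (58.4–68.3). Leaving out these cells moved the log2 ratio of *Saa3* in macrophages from 3.04 to 1.13. The 4 genes were picked from *Saa3*-rich cells, so this split describes where the *Saa3* UMIs lay, and 1 UMI does not set a kind of cell apart.

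**Figure D3:**
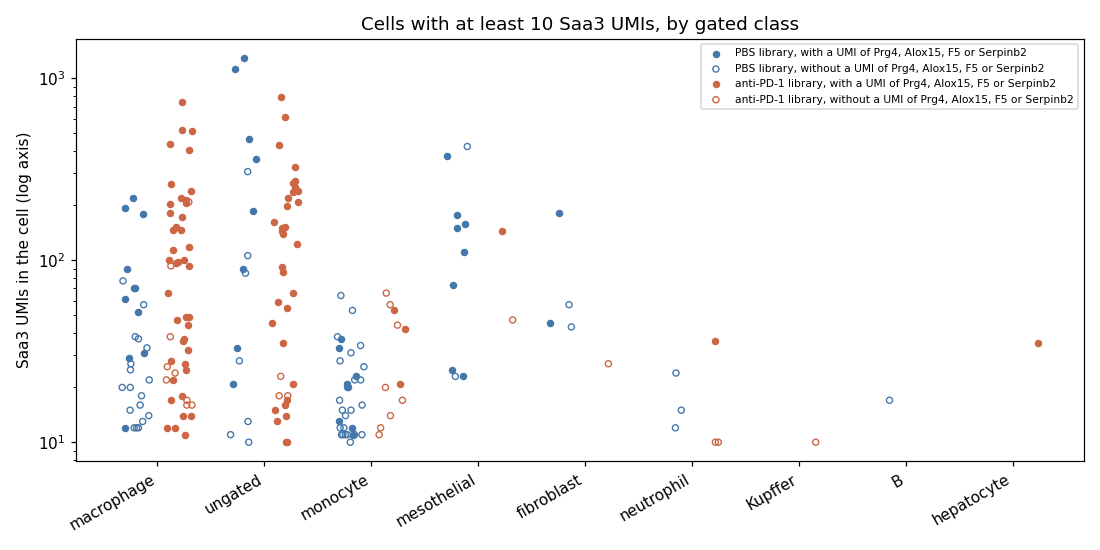
*Saa3* UMIs on a log axis in each kept cell with at least 10 of them, by gated class and library, 94 PBS cells (blue) and 106 anti–PD-1 cells (orange). Filled points also have a UMI of *Prg4*, *Alox15*, *F5* or *Serpinb2*, as 42 of the 51 anti–PD-1 macrophages and 11 of the 29 PBS macrophages do, and the highest PBS cell, at 1292 UMIs, is ungated.

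Counted over all kept cells, *Saa3*-rich cells had overlapping shares, at 94 of 15531 (0.605%, 0.489 to 0.74) and 106 of 16360 (0.648%, 0.531 to 0.783), and held 8218 and 12717 UMIs. Their places differed, as did the share of them with a UMI of *Prg4*, *Alox15*, *F5* or *Serpinb2*, at 39.4% and 76.4%. Of the PBS cells, 32 were monocytes, 29 macrophages, 15 ungated and 10 mesothelial cells, and of the anti–PD-1 cells, 51 were macrophages, 36 ungated and 11 monocytes. Ungated cells held 4229 of 9112 *Saa3* UMIs (46.4%) in the PBS library and 6019 of 14595 (41.2%) in the anti–PD-1 library. In the PBS library, 4 ungated cells between the macrophage and Kupffer cell scores alone held 2632 UMIs. With no lead required in the gate, which places such cells, the macrophage log2 ratio of *Saa3* was 2.12, and with markers counted as detected or not it was 1.74.

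In monocytes *Saa3* had 921 UMIs (PBS, 452 cells) and 532 UMIs (anti–PD-1, 368 cells), or 287.8 CPM (269.5–307) and 215.1 CPM (197.2–234.1). This gave a log2 ratio of −0.41 (−0.57 to −0.26), and the thinned shares of 11.2% (8.44–14.5) and 9.29% (6.52–12.7) overlapped. The direction turned in 3 of 13 alternatives, to 3.33 in the 39 and 220 male-called monocytes (4 and 320 UMIs), to 0.44 with markers counted as detected or not and to 0.07 with no lead required. *Saa3* in PBS monocytes was spread over a larger share of cells than in macrophages, with 63.6% of UMIs in the 23 highest cells.

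Fibroblasts had 355 *Saa3* UMIs (PBS, 362 cells) and 45 (anti–PD-1, 132 cells), or 171.4 CPM (154.1–190.2) and 53.9 CPM (39.3–72.1), and the log2 ratio was −1.58 (−2.02 to −1.16). In the PBS library 4 cells held 327 of the UMIs, 182 of them in 1 cell, and only 14 fibroblasts had any. Without cells of at least 10 UMIs *Saa3* was at 13.8 CPM (9.13–19.9) and 22.1 CPM (13.1–35), so the fibroblast difference lay in those few cells. The direction turned in 3 of 13 alternatives, to 3.56 in the 28 and 68 male-called fibroblasts (0 and 35 UMIs), to 0.40 with no upper limit of detected genes and to 0.53 without cells of at least 10 *Saa3* UMIs, and the ratio was −0.03 without cells having a UMI of *Prg4*, *Alox15*, *F5* or *Serpinb2*. Mesothelial cells, below the limit of 50 cells and described because their level was the highest of any class, had 1558 UMIs (PBS, 45 cells) and 202 (anti–PD-1, 25 cells), or 3959 CPM (3764–4160) and 983.6 CPM (852.6–1129).

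All other main classes had *Saa3* at 45.1 CPM or less in both libraries. In tumor or biliary epithelial cells it had 37 and 66 UMIs, or 5.58 CPM (3.93–7.7) and 21.4 CPM (16.5–27.2), with a log2 ratio of 1.32 (0.92–1.69). T cells had 6.22 and 16.8 CPM with a log2 ratio of 0.96, NK cells 5.08 and 20.5 CPM, and B cells 16.4 and 19.6 CPM. The T cell ratio turned to −0.22 in male-called cells and reached 1.92 with markers counted as detected or not. In B cells the main ratio was 0.20, and the 13 alternatives ranged from 0.002 to 2.425, the highest with markers counted as detected. Kupffer cells were at 0.86, with a range from 0.37 to 2.595, the highest with no upper limit of detected genes. The epithelial levels lay close to those of the lymphocytes, and free RNA was not separated from expression there.

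*Saa1* (ENSMUSG00000074115, mm10 chromosome 7, 46740497 to 46742980, reverse strand) and *Saa2* (ENSMUSG00000057465, 46751790 to 46754313, forward strand) lie 8809 bases apart and are transcribed away from each other. Their promoter windows, from 250 bases before to 50 bases after the start site in RefSeq (GRCm38.p6), are identical in 95.3% of alignment columns, and the last 200 bases of their longest coding transcripts in 90.1%, with a longest shared run of 39 bases. How the counting treated reads that fit both genes is not stated, so their split is uncertain and their sum is the safer value. The windows of the 3 amyloid genes are shown because *Saa3*, whose window has 51.3% identity with that of *Saa1*, had another pattern over cell classes. They lie at chr7:46742931-46743230 (reverse strand) for *Saa1*, chr7:46751583-46751882 (forward strand) for *Saa2* and chr7:46715627-46715926 (reverse strand) for *Saa3*, and capitals mark matches to the motifs TTGCACAA (C/EBP) and GGNNTTTCC (NF-kB), searched on both strands.
Saa1: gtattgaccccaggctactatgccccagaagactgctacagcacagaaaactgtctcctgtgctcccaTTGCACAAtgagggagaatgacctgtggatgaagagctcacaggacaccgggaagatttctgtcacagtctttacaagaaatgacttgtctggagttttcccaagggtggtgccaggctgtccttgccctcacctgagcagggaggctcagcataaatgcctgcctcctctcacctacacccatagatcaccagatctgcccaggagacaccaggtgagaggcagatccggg
Saa2: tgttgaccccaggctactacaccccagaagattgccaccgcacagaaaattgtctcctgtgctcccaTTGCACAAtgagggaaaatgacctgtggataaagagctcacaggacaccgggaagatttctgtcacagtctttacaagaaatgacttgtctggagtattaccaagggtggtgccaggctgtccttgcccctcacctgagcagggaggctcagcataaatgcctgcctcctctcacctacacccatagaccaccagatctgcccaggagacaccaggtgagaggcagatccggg
Saa3: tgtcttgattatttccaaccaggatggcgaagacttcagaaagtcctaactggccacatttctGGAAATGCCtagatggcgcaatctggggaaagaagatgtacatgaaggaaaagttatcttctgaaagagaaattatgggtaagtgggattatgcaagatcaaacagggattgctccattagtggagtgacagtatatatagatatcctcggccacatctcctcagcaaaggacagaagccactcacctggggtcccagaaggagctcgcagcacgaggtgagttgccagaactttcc

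The motif TTGCACAA occurred once in the *Saa1* window and once in the *Saa2* window, and in 1.01% of the 32851 promoter windows of the same length. The motif GGNNTTTCC occurred once in the *Saa3* window, on the reverse strand, and in 5.82% of all windows. The STAT motif TTCNNNGAA occurred in none of the 3 amyloid windows, once in that of *Hamp* and in 8.3% of all windows. The table used here held windows for 6 members, without *Orm1* and *Hp*. A match describes these letters only.

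Hepatocytes were few, with 70 cells under PBS and 20 under anti–PD-1, and fall below the limit of 50 cells. They are described because *Saa1*, *Saa2*, *Orm1* and *Hamp* had their highest levels there. Albumin (*Alb*), the defining hepatocyte product, was found in 68 of the 70 and 18 of the 20 cells. *Saa1* had 77 UMIs in the PBS hepatocytes and 297 in the anti–PD-1 hepatocytes, and *Saa2* had 83 and 199. In the PBS library they were found in 13 and 17 of the 70 cells, with at most 13 and 16 UMIs in a cell. In the anti–PD-1 library 5 of 20 cells had *Saa1*, and 2 cells held 292 of the 297 UMIs, with 189 and 103 each. The same held for *Saa2*, where 2 cells held 196 of 199 UMIs. The sum of both genes was 870.5 CPM and 4962 CPM, and the second value describes the RNA of 2 cells.

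**Figure D4:**
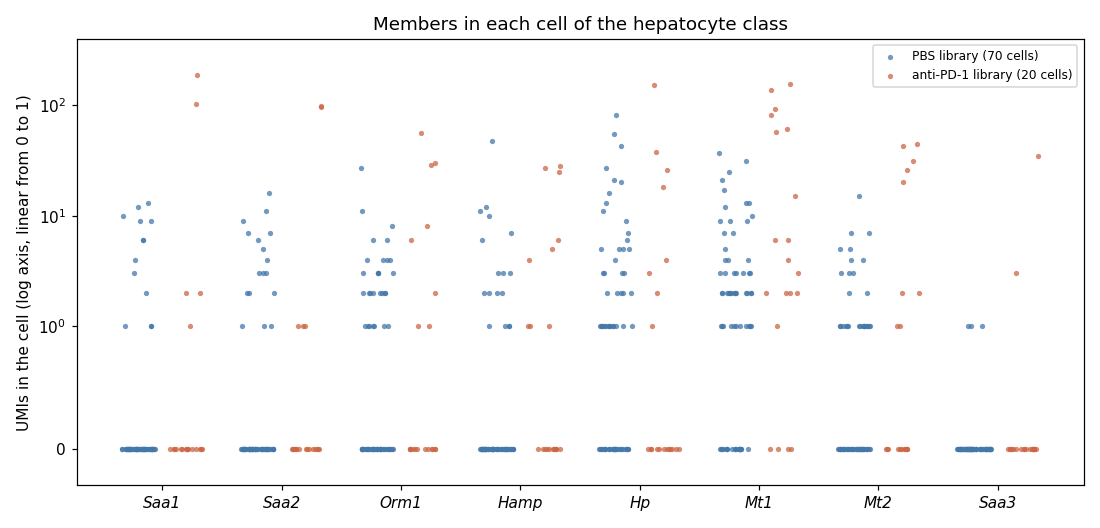
UMIs of each member in every cell of the hepatocyte class, 70 cells of the PBS library (blue) and 20 of the anti–PD-1 library (orange), on a log axis that is linear from 0 to 1. For *Saa1* and *Saa2*, 2 anti–PD-1 cells stand far above the rest, while *Orm1*, *Hamp* and *Hp* are spread over more cells.

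*Orm1* (ENSMUSG00000039196, chromosome 4, 63344560 to 63348163) had 112 UMIs in 29 of the 70 PBS hepatocytes and 133 UMIs in 8 of the 20 anti–PD-1 hepatocytes. Its level was 609.3 and 1331 CPM, and the highest cells had 27 and 56 UMIs. *Hamp* (ENSMUSG00000050440, chromosome 7, 30942368 to 30944032) had 114 UMIs in 17 cells and 98 UMIs in 9 cells, or 620.2 and 980.5 CPM. *Hp* was at 2008 CPM (1808–2223) and 2441 CPM (2144–2767), with 1 anti–PD-1 cell holding 152 of 244 UMIs. *Mt1* was at 1616 CPM (1437–1810) and 6293 CPM (5811–6805), and *Mt2* at 413.5 CPM (325.8–517.5) and 1711 CPM (1464–1987). *Saa3* had 3 and 38 UMIs, 35 of them in 1 cell. All 8 members thus had higher summed hepatocyte levels in the anti–PD-1 library, where 46.3% of the 2550 measured genes of the class were higher, and each rests on 20 cells there. For *Hp* the cells did not follow the sum, since 40 of 70 and 8 of 20 cells had a UMI and the median cell was at 4.76 and 0 UMIs per 10000. To show how far the sums rest on single cells, the highest cells were left out, a choice made after the data had been seen. This removes a larger share of the 20 anti–PD-1 cells (5% for 1 cell, 10% for 2) than of the 70 PBS cells (1.43% and 2.86%), and so lowers the anti–PD-1 values more, and no direction is read from it. Without the highest cell of each library *Hp* was at 1811 CPM (1608–2033) and 1023 CPM (824.6–1255), and *Saa3* had 2 and 3 UMIs left. Without the 2 highest cells *Saa1* was at 297.8 CPM (222.4–390.6) and 58.3 CPM (18.9–136), on 52 and 5 UMIs, and *Saa2* at 342.2 CPM (258.5–444.4) and 35 CPM (7.21–102.2), on 56 and 3 UMIs. *Orm1* was then at 469.2 and 627 CPM, *Hamp* at 350.2 and 501.2 CPM, *Mt1* at 1312 and 4156 CPM and *Mt2* at 330 and 1030 CPM. The male-called cells of this class numbered 1 and 11, too few for a comparison.

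In the main classes *Saa1*, *Saa2* and *Orm1* were near 0, as was *Hamp* outside tumor or biliary epithelial cells. Over the 9 main classes together *Saa1* had 52 and 69 UMIs, *Saa2* 18 and 34, *Orm1* 60 and 49 and *Hamp* 180 and 27. The highest level of *Saa1* was 6.28 CPM, on 13 UMIs in PBS fibroblasts, that of *Saa2* 3.37 CPM, on 7 UMIs in PBS B cells, and that of *Orm1* 3.89 CPM, on 8 UMIs in PBS neutrophils. No ratio is given for *Saa1* and *Saa2* in their leading classes, fibroblasts and B cells, which together did not reach 20 UMIs each. *Orm1* in neutrophils had a log2 ratio of −0.34 (−0.85 to 0.16). *Saa1* UMIs per *Alb* UMI in neutrophils were 0.00735 under PBS and 0.479 (0.278–0.803) under anti–PD-1, and in hepatocytes 0.031 (0.0244–0.0389) and 0.341 (0.298–0.389), the last resting on 2 cells. The ratio was not alike over the classes of the anti–PD-1 library, at 0.382 (0.185–0.743) in B cells, 0.257 (0.144–0.4365) in T cells and 0.125 (0.0518–0.261) in macrophages. It was 0.0234 (0.0063–0.061) in Kupffer cells and 0.00319 (0.000386–0.0116) in tumor or biliary epithelial cells, while NK cells and monocytes had 0 *Saa1* UMIs and fibroblasts 1. Subtracting hepatocyte-class RNA, scaled by other hepatocyte genes, moved the log2 ratio of *Saa1* in neutrophils from 0.57 to 0.41. That subtraction also rests on the 2 anti–PD-1 hepatocytes, and the part of free hepatocyte RNA in these counts was not tested further.

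*Hamp* had the largest fall of a member in all cells of a main class. Tumor or biliary epithelial cells had 118 *Hamp* UMIs under PBS (1500 cells) and 2 under anti–PD-1 (970 cells), or 17.8 CPM (14.7–21.3) and 0.647 CPM (0.0784–2.34). The log2 ratio was −2.01 (−2.18 to −1.60). This difference could not be evaluated in male-called epithelial cells, which had 3 and 2 *Hamp* UMIs (82 and 277 cells), at 4.99 CPM (1.03–14.6) and 1.12 CPM (0.135–4.03), nor in cells without *Alb*, *Apoa1*, *Apoa2* or *Ttr* UMIs, which had 12 and 1. Those 118 UMIs lay in 36 cells, at most 25 in one. PBS epithelial cells with a *Hamp* UMI had *Alb* at 893 CPM against 164.3 CPM in the others, while *Apoa1* was at 15.8 and 9.39 CPM on 2 and 61 UMIs. *Ttr*, another hepatocyte product, was at 1897 and 928.7 CPM, and the epithelial keratins were at 877.2 and 731 CPM for *Krt19* and 3295 and 3552 CPM for *Krt8*. The 36 cells had 118 *Hamp* and 113 *Alb* UMIs. Over all PBS epithelial cells there were 0.0999 (0.082–0.121) *Hamp* UMIs per *Alb* UMI, and in PBS hepatocytes 0.0459 (0.0377–0.0554).

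*Hp* (ENSMUSG00000031722, chromosome 8, 109575128 to 109579172, reverse strand) led in neutrophils. PBS neutrophils (1204 cells) had 2925 UMIs, or 1423 CPM (1372–1475), and anti–PD-1 neutrophils (2956 cells) had 15650 UMIs, or 2132 CPM (2099–2166). This gave a log2 ratio of 0.58 (0.53–0.64), below 2-fold. The thinned share of neutrophils with an *Hp* UMI was 63.3% (60.3–66.1) and 74.1% (72.5–75.7), while T cells had 3.49% and 5.79%. Unlike *Saa3*, *Hp* was spread over the class, with 21.1% and 19.8% of UMIs in the highest 5% of cells and at most 19 and 48 UMIs in a cell. Monocytes had 833.4 CPM (802.1–865.6) and 741.4 CPM (707.9–776.1), with a log2 ratio of −0.17 (−0.25 to −0.08) that became 0.13 in male-called cells.

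Among the main classes, the largest difference in *Hp* lay in tumor or biliary epithelial cells, where 4620 UMIs (PBS, 1500 cells) and 4924 (anti–PD-1, 970 cells) gave 697.3 CPM (677.3–717.7) and 1594 CPM (1550–1639). The log2 ratio was 1.19 (1.13–1.25) and ranged from 1.15 to 1.88 over the 13 alternatives. The thinned share of cells went from 34% (31.4–36.7) to 63.8% (60.2–67.2). Summed neutrophil markers in this class were also higher, at 203.3 and 925.7 CPM, with all 10 detected in both libraries, and in T cells they were at 283.2 and 841.8 CPM beside 34.5 and 64.9 CPM of *Hp*. In epithelial cells with no UMI of any neutrophil marker, 993 and 164 cells, *Hp* was at 679.2 CPM (652.4–706.8) and 1692 CPM (1533–1864). Such cells were shallower, with a median of 1789 and 1113 UMIs against 2020 and 1411 in the whole class, and the part of neutrophil RNA in the difference was not tested. *Hp* in the lymphocytes, macrophages, Kupffer cells and fibroblasts was at 121 CPM or less, and the part of neutrophil RNA was not tested there either. Some classes with at least 50 but under 100 cells in a library had larger ratios than the epithelial class. The log2 ratio was 1.42 (0.86–1.97) in endothelial cells (66 and 36 UMIs) and 1.45 (0.34–2.56) in mature dendritic cells (7 and 22 UMIs). It was 1.49 (0.50–2.49) in plasmacytoid dendritic cells (9 and 28 UMIs), while plasma cells were at 0.66 and cDC1 at 0.47.

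*Mt1* (ENSMUSG00000031765, mm10 chromosome 8, 94179082 to 94180327) and *Mt2* (ENSMUSG00000031762, 94172664 to 94173568) lie 5513 bases apart on the forward strand of chromosome 8. Their promoter windows are shown because both genes were past 2-fold in fibroblasts and because zinc acts on them through short metal response elements. They lie at chr8:94178839-94179138 and chr8:94172368-94172667, both on the forward strand, and capitals mark matches to the cores TGCACNC and TGCGCNC on either strand.
Mt1: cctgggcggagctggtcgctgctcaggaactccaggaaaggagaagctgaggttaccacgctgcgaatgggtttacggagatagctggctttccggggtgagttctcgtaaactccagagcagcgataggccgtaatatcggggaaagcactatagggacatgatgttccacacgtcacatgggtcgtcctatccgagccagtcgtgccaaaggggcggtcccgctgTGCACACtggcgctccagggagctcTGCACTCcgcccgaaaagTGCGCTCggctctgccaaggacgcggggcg
Mt2: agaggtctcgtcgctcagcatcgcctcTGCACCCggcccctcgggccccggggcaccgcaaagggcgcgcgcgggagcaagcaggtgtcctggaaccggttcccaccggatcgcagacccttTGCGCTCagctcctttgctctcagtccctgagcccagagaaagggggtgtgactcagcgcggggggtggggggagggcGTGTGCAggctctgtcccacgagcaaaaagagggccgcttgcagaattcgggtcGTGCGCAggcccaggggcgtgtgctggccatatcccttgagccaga

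The *Mt1* window held 3 core matches and the *Mt2* window 4, and 7.11% of all windows held 2 or more. The windows were otherwise unlike, with 48.4% identity, and the last 200 bases of the transcripts had 61.2% identity and a longest shared run of 12 bases, so reads of the 2 genes differ more than those of *Saa1* and *Saa2*.

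Among the main classes both metallothioneins were highest in fibroblasts, and both were higher there in the anti–PD-1 library. PBS fibroblasts (362 cells) had 2154 *Mt1* UMIs, or 1040 CPM (996.7–1085), and anti–PD-1 fibroblasts (132 cells) had 2555 UMIs, or 3061 CPM (2944–3182). This gave a log2 ratio of 1.55 (1.47–1.64). *Mt2* had 576 and 744 UMIs, or 278.1 CPM (255.9–301.8) and 891.4 CPM (828.5–957.8), with a log2 ratio of 1.66 (1.51–1.82). The ratios stayed between 1.34 and 1.74 for *Mt1* and between 1.49 and 1.90 for *Mt2* under the 13 alternatives, male-called cells included. In the anti–PD-1 library the highest 7 fibroblasts held 45.8% of the *Mt1* UMIs, with at most 276 in a cell, and in the PBS library the highest 19 held 42.3%, with at most 165. The thinned share with an *Mt1* UMI was 45.5% (39.8–51.2) and 56.4% (46.6–65.8), with overlapping intervals, so the level differed more than the share of cells. T cells had shares of 6.15% and 10.1% at this depth. Summed neutrophil markers in fibroblasts were at 285.9 and 765.6 CPM (9 and 10 of 10 detected) and summed macrophage markers at 477.6 and 649.4 CPM (all 10 detected). Summed pancreatic acinar markers were at 1.93 and 111.4 CPM there. This rise was not particular to fibroblasts, with 8.76 and 114.9 CPM in neutrophils, 3.79 and 60.6 CPM in T cells and 0.957 and 49.8 CPM in macrophages. The part of such RNA in the result was not tested.

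In macrophages *Mt1* had 18388 and 14095 UMIs, or 651.6 CPM (642.2–661.1) and 1140 CPM (1121–1159), with a log2 ratio of 0.80 (0.77–0.83). *Mt2* had 695 and 1074 UMIs, or 24.6 CPM (22.8–26.5) and 86.8 CPM (81.7–92.2), with a log2 ratio of 1.63 (1.51–1.75). Part of the *Mt2* difference lay in the macrophages with a UMI of *Prg4*, *Alox15*, *F5* or *Serpinb2*, in which *Mt2* was at 30.1 CPM (19.5–44.4) under PBS and 217.5 CPM (199–237.2) under anti–PD-1. In the other macrophages it was at 24.5 CPM (22.6–26.4) and 56.4 CPM (51.8–61.2). Monocytes had *Mt1* at 442.8 CPM (420–466.5) and 1080 CPM (1039–1122), with a log2 ratio of 1.28 (1.18–1.37), and Kupffer cells at 403.5 and 530.9 CPM, with a ratio of 0.39 (0.32–0.46).

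Tumor or biliary epithelial cells had *Mt1* at 822 CPM (800.3–844.1) and 1078 CPM (1041–1115) and *Mt2* at 189 CPM (178.6–199.7) and 232.4 CPM (215.7–250). The log2 ratios of 0.39 (0.33–0.45) and 0.29 (0.16–0.42) turned to −0.66 and −1.08 in the 82 and 277 male-called cells. Neutrophils had *Mt1* at 143.5 and 249.6 CPM, T cells at 77.5 and 115.5 CPM, B cells at 94.9 and 118.9 CPM and NK cells at 86.3 and 77.4 CPM, and only in NK cells did the interval of the ratio, −0.48 to 0.19, hold 0. Of the small classes, described after their values had been seen, the 46 anti–PD-1 cDC2 had *Mt1* at 2267 CPM (2118–2425) against 551.8 CPM (506.6–599.9) in 141 PBS cells. Mesothelial cells (45 and 25) went the other way. They had *Mt1* at 1006 and 628.1 CPM, with a log2 ratio of −0.68 (−0.97 to −0.39). *Mt2* was at 360.8 and 194.8 CPM there, with a log2 ratio of −0.87 (−1.40 to −0.37). Pancreatic acinar cells, 38 in the anti–PD-1 library and 0 in the PBS library, had *Mt1* at 4825 CPM (4553–5109).

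**Figure D5:**
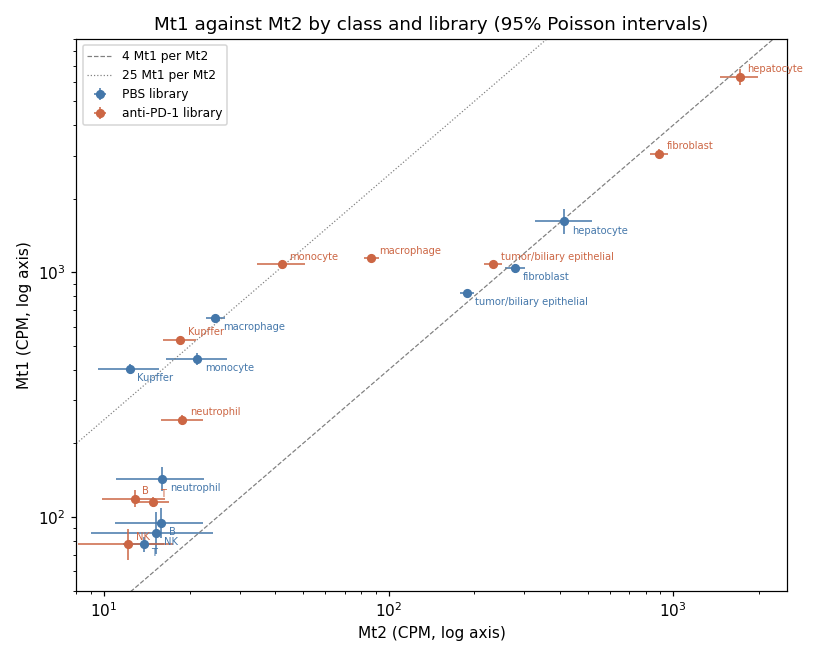
*Mt1* against *Mt2* level in CPM on log axes, 1 point per class and library (PBS blue, anti–PD-1 orange) with 95% Poisson intervals and lines at 4 and 25 *Mt1* UMIs per *Mt2* UMI. Fibroblasts, epithelial cells and hepatocytes lie near the lower line and monocytes and Kupffer cells near the upper one, and anti–PD-1 macrophages lie between them at 13.1.

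The balance of the 2 metallothioneins differed between classes and, in some of them, between the libraries. As UMI counts, in which a molecule counts once whatever its length, there were 3.74 (3.41–4.11) and 3.43 (3.16–3.73) *Mt1* UMIs per *Mt2* UMI in PBS and anti–PD-1 fibroblasts. Epithelial cells had 4.35 (4.09–4.63) and 4.64 (4.28–5.03) and hepatocytes 3.91 (3.03–5.1) and 3.68 (3.1–4.38). Kupffer cells, at 32.8 (25.7–42.4) and 28.7 (25.1–33), and monocytes, at 20.8 (16.3–27) and 25.7 (21.1–31.6), had far less *Mt2* for their *Mt1*. Macrophages had 26.5 (24.5–28.6) under PBS and 13.1 (12.3–14) under anti–PD-1, and were the main class in which the libraries differed most. T cells had 5.61 (4.69–6.76) and 7.79 (6.78–8.99). B cells had 5.97 (4.11–8.91) and 9.28 (7.16–12.2) and neutrophils 8.94 (6.23–13.2) and 13.3 (11.2–15.9), with overlapping intervals. Among the small classes cDC2 had 22 (14.7–34.2) and 8.36 (6.8–10.4).

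Lists of related genes were read in the leading classes of *Saa3*, *Hp* and *Mt1*. In macrophages, where 2.19% of all measured genes were at least 2-fold higher and 0.326% lower, 10 of 17 measured genes of the IL-6, IL-1 and STAT3 list were higher by 2-fold or more with anti–PD-1 and 0 lower, with a median log2 ratio of 1.31 against −0.13 over all measured genes. *Il6* went from 22 to 1015 UMIs (0.78 and 82.1 CPM, log2 ratio 3.91), *Il1b* from 91.2 to 742.6 CPM (2.96), *Nfkbiz*, an IL-1-induced IκB family member, from 91.4 to 551 CPM (2.53), and *Il1a* from 24.4 to 128 CPM (2.18). *Il6* was at 305.9 CPM in the anti–PD-1 macrophages with a UMI of *Prg4*, *Alox15*, *F5* or *Serpinb2* and at 29.8 CPM in the others. Summed neutrophil markers in macrophages were at 557.5 and 990.4 CPM and monocyte markers at 922.9 and 1445 CPM (all 10 of each detected), and their part was not tested. Of the other acute phase genes, 3 of 18 were higher and 0 lower, among them the LPS coreceptor *Cd14* (2.16) and the IL-1 receptor antagonist *Il1rn* (1.96), and *C3* was at 0.73. Receptors for acute phase proteins had 2 of 9 higher and 0 lower, *Fpr2* (1.22), a receptor for serum amyloid A, and *Tlr2* (1.06), while *Fpr1* was at 0.52 and *Lrp1* at −0.47 (729.9 and 525.7 CPM). Glucocorticoid-induced genes had 5 of 10 higher and 0 lower, led by *Dusp1* (2.19), *Cdkn1a* (2.18), *Nfkbia* (1.73) and *Per1* (73.4 and 175 CPM), which stress and inflammation also induce.

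Zinc and copper handling genes other than the 2 metallothioneins had 0 of 11 measured genes past 2-fold in macrophages, with a median of −0.21. The copper exporter *Atp7a* was at −0.54, the importer *Slc39a8* at −0.46, and the zinc exporter *Slc30a1*, itself a target of MTF1, at 0.43 (0.28–0.58). Hepcidin control and iron export genes had 1 of 13 higher, *Id1* (1.06), a BMP target, with *Smad7* at 0.69, *Bmp2* at 0.60 and *Hfe* at −0.57 (106.1 and 69.9 CPM). Negative acute phase genes had 0 of 8 higher and 1 lower, *Alb* (−1.23, 18.9 and 5.17 CPM), with *Ahsg* at −0.90 and *Apoa1* at −0.65, both at 6.63 CPM or less, and the abundant transferrin gene *Trf* at −0.54 (869.6 and 597.2 CPM). *Alb*, *Ahsg* and *Apoa1* are hepatocyte products. Summed hepatocyte markers, which include *Alb*, were at 63 and 37.6 CPM in macrophages, and the part of free hepatocyte RNA was not tested.

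In neutrophils 2.35% of all measured genes were at least 2-fold higher and 3.96% lower, with a median log2 ratio of −0.24. There 6 of 16 genes of the IL-6, IL-1 and STAT3 list were at least 2-fold higher and 1 lower. *Il1a* went from 2.92 to 33.2 CPM (log2 ratio 2.27), *Cebpb*, which drives acute phase genes, from 2268 to 5575 CPM (1.30), and *Osm*, an IL-6 family cytokine, from 120.6 to 294.8 CPM (1.26), while *Il6* had 0 and 54 UMIs. Other acute phase genes had 1 of 16 higher, *Cd14* (1.73), and 5 lower, among them *Fgb* (−2.68), *Hpx* (−1.95) and *Serpina1a* (−1.21). These 3 are hepatocyte products, as are the negative acute phase genes, of which 4 of 6 were lower and 0 higher, with *Alb* at 66.2 and 6.54 CPM. Receptors had 0 of 9, with *Lrp1* at −0.90 and *Tlr2* at 0.82, zinc and copper genes 0 of 9 and hepcidin and iron genes 0 of 11 past 2-fold, counts that at such a background do not set these lists apart. Glucocorticoid-induced genes had 3 of 10 higher, *Cdkn1a* (1.35), *Per1* (1.31) and *Nfkbia* (1.01), and 1 lower, *Klf9* (−1.05).

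In fibroblasts, where 3.33% of all measured genes were at least 2-fold higher and 2.6% lower, 7 of 13 genes of the IL-6, IL-1 and STAT3 list were at least 2-fold higher and 0 lower. Of the 13, 10 were above 0, against a median of 0.00 over all measured genes. *Il6* had 14 and 88 UMIs (log2 ratio 3.23), *Il1b* 14 and 76 UMIs (3.03), *Nfkbiz* 41 and 150 (2.90) and the STAT3 target *Socs3* 84 and 186 (2.32). *Il1b* and *Cd14* are myeloid genes, at 5012 and 2336 CPM in anti–PD-1 neutrophils against 91.1 and 69.5 CPM in anti–PD-1 fibroblasts, where the neutrophil and macrophage markers given above were also higher, and the part of such RNA was not tested. Other acute phase genes had 2 of 12 higher, *Cd14* (2.21) and *C3* (1.33), and 1 lower, *Itih3* (−1.03). Glucocorticoid-induced genes had 3 of 10 higher and 0 lower, *Dusp1* (2.35), *Nfkbia* (1.60) and *Per1* (1.14), with *Sgk1* at 0.83. Zinc and copper genes had 0 of 10 past 2-fold, with a median of −0.01, a count that at such a background does not set the list apart. Negative acute phase genes had 1 of 6 higher, *Cyp2e1* (1.11), and 2 lower, *Ahsg* (−1.81) and *Alb* (−1.44). These 3 are hepatocyte products. Summed hepatocyte markers, which include *Alb*, were at 163.2 and 127 CPM in fibroblasts, and the part of free hepatocyte RNA was not tested. Receptors had 0 of 4 past 2-fold, and hepcidin and iron genes 1 of 9 lower, *Smad6* (−1.39), with *Hmox1* at 0.65.

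Over the 18 points of 9 classes and 2 libraries, the genes whose log2(CPM + 5) followed each member most closely were named by Pearson's r, as a description. *Hp* was followed by *Sgms2* (0.98), *Lcn2* (0.95), itself an acute phase gene of neutrophils and epithelia, and *Svip* (0.93). *Mt1* was followed by the stress gene *Nupr1* (0.93), *Asph* (0.93) and *Anxa5* (0.92), and *Mt2* by the prostaglandin synthase *Ptges* (0.97), *Tcea3* (0.94) and *Arpin* (0.94). *Saa3* was followed less closely, by *Cd93* (0.84), *Adam15* (0.83) and *Mcub* (0.82). The first genes of *Hamp* were *Slc27a2* (0.98), *Cnmd* (0.97) and *Pkp1* (0.97). *Hamp* had 207 UMIs over these points, 118 of them in PBS tumor or biliary epithelial cells, so its correlations rest mainly on that point. *Saa1* (121 UMIs over these points), *Saa2* (52) and *Orm1* (109) were too sparse for such a comparison, and their first genes were *3300005D01Rik* (0.78), *Ighg3* (0.79) and *4833418N02Rik* (0.88). The points share libraries and free RNA, so they are not independent.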

How the data were processed

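scRNA-Seq was measured in 2 libraries, 1 per group, prepared with the Singleron GEXSCOPE kit (V2). Each matrix deposited by the authors holds unnormalized UMI counts of genes in barcodes, made with the Singleron software against mm10, and the labels name Seurat 4.3. The software version, gene annotation and treatment of strand and shared reads are not given in the sources used here. Limits of 500 to 5000 detected genes and 10% mitochondrial UMIs were applied, as in the study's methods. Normalization and integration of the study were not repeated.

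A cell took the class with the highest mean scaled level of its 8 to 10 markers (log of counts per 10000, over the 99th percentile), at 0.2 or more and with a lead of 0.1 over the second class. These 2 thresholds were set after cell numbers had been seen. Of gated cells, 1135 and 1396 lay within 0.05 above the lead, and 841 and 1136 cells left ungated lay within 0.05 below it. No doublet caller was run, and the lead limits mixed cells. The classes' 10 leading genes held 2 to 8 of their own markers. UMIs were summed per library and class, with exact Poisson, binomial (Clopper-Pearson) and split-count intervals at 95%. Cells under 1000 UMIs were left out of thinned shares, for example 48 and 67 macrophages. In the tumor or biliary epithelial class more were lost, with 1246 of 1500 and 737 of 970 cells remaining. The 8 members, the classes' markers and the gene lists were chosen with earlier results of these data known. Named were all members, up to 4 genes per list with the largest absolute log2 ratio in the leading class of *Saa3*, *Hp* and *Mt1* (the class with the highest mean CPM among those of 100 cells), and the 3 genes most correlated with each member, of which 1 is printed for sparse members. One gene that this rule names is not reported here. Cells rich in *Saa3* (10 UMIs) and their genes (5 UMIs in both libraries) were defined after the data had been seen. The code was tested on simulated counts. Coordinates are from GENCODE vM21 (GRCm38, mm10), in which 99.8% of gene identifiers were found, and promoter windows from RefSeq. Python 3.11.15, numpy 2.4.6, scipy 1.17.1, pandas 2.3.3 and matplotlib 3.10.9 were used.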

Additional observations from a re-analysis of the deposited data

Results flagged for a closer look

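*Saa3* moved in opposite directions in 2 main classes, each ratio with an interval that leaves out 0. The log2 ratio was 3.04 in macrophages and −1.58 in fibroblasts, a difference of 4.62 that was not tested, since each group is 1 library. In both classes few cells hold most of the UMIs. The fibroblast ratio turned positive in 3 of 13 alternatives, and the opposite directions were not seen in male-called cells, where macrophages were at 5.31 and fibroblasts had 0 UMIs in 28 PBS cells and 35 UMIs in 68 anti–PD-1 cells.

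*Hp* also moved in opposite directions, at 1.19 in tumor or biliary epithelial cells and −0.17 in monocytes, a difference of 1.35 that was not tested. In male-called cells the ratios were 1.65 and 0.13, both above 0.

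Barcodes that the limits left out, 3866 (PBS) and 3091 (anti–PD-1), hold many member UMIs and enter no class above. *Saa3* was at 156.8 CPM in them in the anti–PD-1 library and at 26.6 CPM in the PBS library, mostly in barcodes with over 5000 detected genes (3416 of 3628 UMIs). *Hp* was at 943.7 and 610.1 CPM there, and 64.4% of all *Hp* UMIs of the PBS library were left out. *Mt1* was at 842.3 and 738.4 CPM.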

How the results depend on the processing

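The ratios of members in each class and the counts past 2-fold were recomputed under up to 13 alternatives, and 3 shares without thinning, but not the gene lists, the *Mt1* per *Mt2* and per *Alb* ratios or the hepatocyte values, which were recomputed only without the highest cell or cells. Of the alternatives, 3 (no lead in the gate, no UMI of *Prg4*, *Alox15*, *F5* or *Serpinb2*, and fewer than 10 *Saa3* UMIs) were chosen after seeing the data. The ratios of *Saa3*, *Orm1*, *Hp*, *Hamp*, *Mt1* and *Mt2* in their leading classes kept their sign in all 72 recomputations, and 53 stayed within the counting interval. Each leading class was picked by the mean level of both libraries. Under PBS alone *Saa3* was higher in monocytes (287.8 CPM) than in macrophages (62.1 CPM), and under anti–PD-1 *Hamp* was highest in neutrophils (1.09 CPM). For these 2 members the library with the high value set the class, so their kept sign was partly fixed in advance. *Saa3* in macrophages (3.04) was the least stable, at 2.95 with no upper limit of detected genes, 3.11 with a pseudocount of 1, 3.23 with median-ratio scaling, 1.74 with markers counted as detected, 1.92 with the lead doubled, 5.31 in male-called cells, 2.79 without *Alb*, *Apoa1*, *Apoa2* or *Ttr* UMIs, 1.13 without *Prg4*, *Alox15*, *F5* or *Serpinb2* UMIs, 0.75 in cells with fewer than 10 *Saa3* UMIs and 2.12 with no lead. *Hp* in neutrophils was at 0.79 with median-ratio scaling and *Hamp* at −3.51 with a pseudocount of 1. *Mt1* and *Mt2* in fibroblasts were at 1.34 and 1.49 with no upper limit and at 1.66 and 1.90 with markers counted as detected. *Mt1* was at 1.74 without *Alb*, *Apoa1*, *Apoa2* or *Ttr* UMIs, and *Mt2* at 1.89 in male-called cells and 1.86 without *Prg4*, *Alox15*, *F5* or *Serpinb2* UMIs. The count of higher members went from 8 to 17 in male-called cells, and that of lower members from 2 to 1 there, with no upper limit, and without cells holding UMIs of either 4-gene set. With no upper limit, and without *Prg4*, *Alox15*, *F5* or *Serpinb2* UMIs, only *Hamp* in epithelial cells stayed past 2-fold lower. Without *Alb*, *Apoa1*, *Apoa2* or *Ttr* UMIs, *Saa3* in fibroblasts stayed (log2 ratio −1.75), while *Hamp*, at 12 and 1 UMIs, was too sparse to be measured. In male-called cells neither pair was counted, and the 1 lower pair was *Mt2* in epithelial cells (−1.08). What moved the ratios themselves, and the higher count, was not tested. Without thinning, shares were 5.06% and 15.6% for *Saa3* in macrophages, 73.4% and 85.4% for *Hp* in neutrophils and 67.1% and 74.2% for *Mt1* in fibroblasts. No paired analysis was possible because each group is 1 library, and no replicate could be left out. *Hamp* in epithelial cells could not be evaluated in male-called cells or without *Alb*, *Apoa1*, *Apoa2* or *Ttr* UMIs. *Orm1* in neutrophils could not be evaluated in these cells either, nor with the lead doubled or without *Prg4*, *Alox15*, *F5* or *Serpinb2* UMIs. Depth limits *Saa1*, *Saa2* and *Orm1*, which had at most 30 UMIs in any main class and library.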

Other observations

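In the PBS library *Hamp* was the member with the largest share of UMIs left out by the limits on cells. Of its 1535 UMIs in the PBS library, 1134 (73.9%) lay in barcodes left out, 963 of them in the 927 barcodes with over 5000 detected genes, at 26.6 CPM (25.1–28.2) against 5.07 CPM in kept cells. In the anti–PD-1 library 37 of 182 *Hamp* UMIs were left out, at 1.60 CPM (1.13–2.2), and *Hp* had the largest share there, at 43.0%.

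Cells without a class also differed in their metallothioneins, with *Mt1* at 461.2 CPM in the PBS library and 790.8 CPM in the anti–PD-1 library, and *Mt2* at 53.6 and 84.2 CPM.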
